A study of Mus musculus with 8 samples.

Results

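The transcripts with the highest signal in the whole prostate of wild-type mice are described here from 4 arrays, each hybridised with RNA from 1 mouse. The mice were 3 months old, carried both copies of *Olfm4*, had received no treatment that the labels name, and had a background mixed in equal shares from Black Swiss mice of the National Institutes of Health and 129/SV. The other 4 of the 8 arrays, from Olfm4-knockout prostate of the same age and background, enter only where they are named, and no genotype contrast is made. Whole tissue was taken, so lobes, epithelium, stroma and attached tissue share an array, and more cells of a type cannot be told apart from more RNA per cell. The values are signals of probe sets (groups of short probes for a transcript) on the log2 scale. Each gene was represented by the brightest of its probe sets, by the mean of the 4 arrays, and the 300 highest of 18193 genes, or 1.65%, were taken as members. Probes bind with different strength, so the order of genes is an order of signal and not of transcript number.

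The mouse prostate is a set of branched glands. Luminal epithelial cells, marked by the keratins *Krt8* and *Krt18*, make and export proteins of the seminal fluid under the control of androgen. Basal epithelial cells lie beneath them, and a sheath of smooth muscle and fibroblasts surrounds each duct. A cell that exports protein needs ribosomes, the endoplasmic reticulum (ER) with its translocation channel and folding enzymes, Golgi enzymes, and the mitochondria that supply energy. The seminal vesicles lie against the anterior prostate and secrete proteins of their own.

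The labelled tissue was compared with its markers first. Of 12 luminal markers, 10 were measured, their mean was 12.79 to 12.82 on every array, and 7 were members: *Krt18*, *Cd24a*, *Krt19*, *Pbsn*, *Krt8*, *Hoxb13* and *Epcam*. Among luminal markers *Elf3* alone was low, at 6.33. Basal markers averaged 9.67 to 9.87 and smooth muscle markers 12.52 to 12.72, whereas the markers of testis (5.17 to 5.35), pancreas (5.29 to 5.57) and epididymis (4.33 to 4.85) were near the array medians of 6.07 to 6.09 or lower. Wild-type array 1 stood apart. Its seminal vesicle markers averaged 14.05, against 7.39, 9.12 and 8.57 on arrays 2, 3 and 4. Its adipose markers averaged 10.38, against 6.84, 7.50 and 6.39, and nerve markers were higher on arrays 1 and 3 (9.25 and 8.73) than on arrays 2 and 4 (7.57 and 7.53). Without array 1, 295 of the 300 genes were members still. The correlation between 2 wild-type arrays over all probe sets ran from 0.990 to 0.996.

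**Figure D1:**
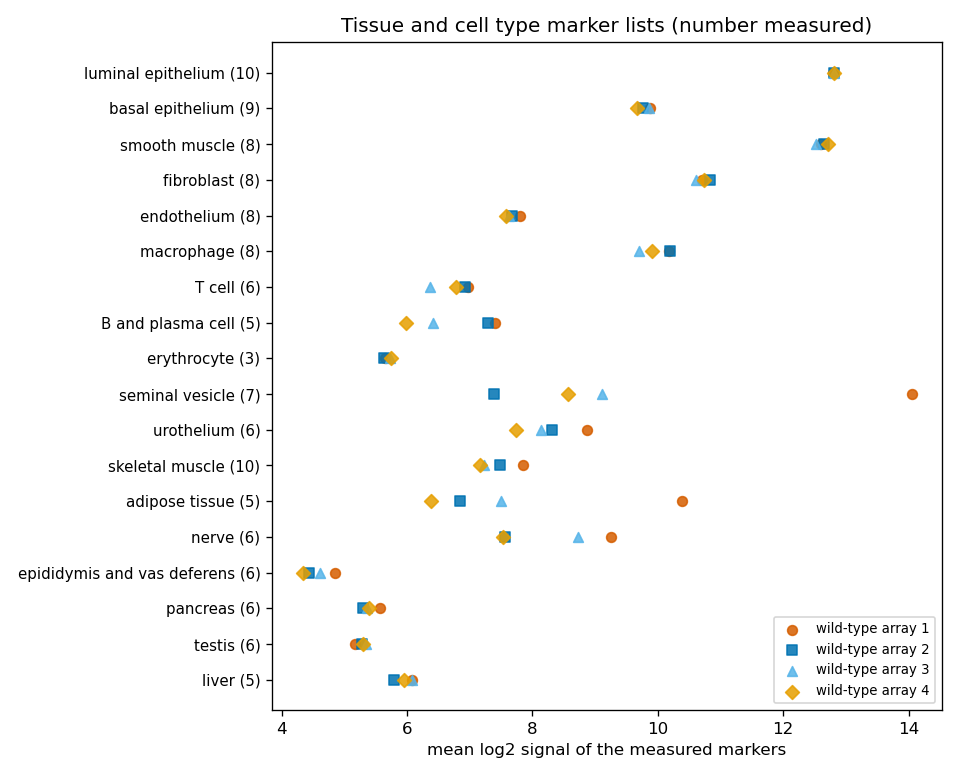
Mean log2 signal of tissue and cell type marker lists (horizontal axis) on each of the 4 wild-type arrays, with the number of measured markers in brackets. Luminal markers coincide near 12.8 on all 4 arrays, and array 1 lies far to the right for seminal vesicle markers (14.05) and adipose markers (10.38).

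The genes with the highest signal were those of the ribosome and of mitochondrial respiration. Cytosolic ribosomal proteins held 12 of the 20 highest positions and 37 of the 300, and subunits of the respiratory chain and ATP synthase held 4 of the 20 and 31 of the 300. Of the 51 genes on the ribosomal list that were measured, 72.5% were members, as were 33.7% of 92 respiratory genes, against 1.65% of all genes. Secretory products of the prostate lobes supplied 11 members of 42 measured (26.2%). ER folding supplied 11 members, ER translocation, glycosylation and export to the Golgi 14, keratins and epithelial adhesion 11, and smooth muscle contraction 6. No gene of the erythroid list (7 measured, the globins and 1 enzyme of heme synthesis) was among the 300. Nor was any cell cycle gene (24 measured) or seminal vesicle secretory gene (7 measured). At the 1.65% share of all genes, lists of these lengths would hold few members or none. The globin *Hba-a1* was at 3.56 by its only probe set with 1 symbol, and whether the globin probe sets used detect the transcripts was not tested. In all, 204 members came from functional lists, 77 were placed in a group after their values had been seen, and 19 were left without a group.

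**Figure D2:**
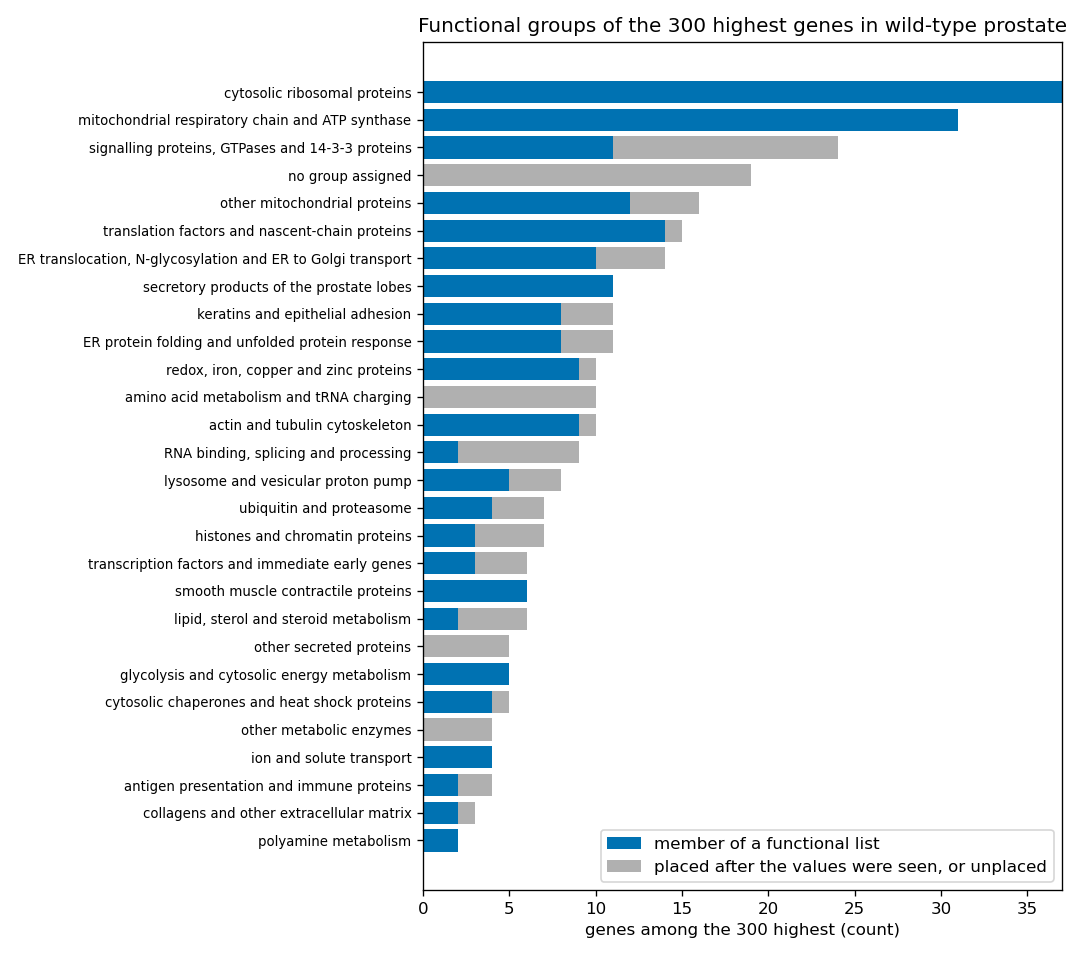
Number of the 300 highest genes (horizontal axis) in each functional group. Blue bars are genes of the functional lists and grey bars are genes placed after their values were seen or left unplaced. Cytosolic ribosomal proteins (37) and the respiratory chain with ATP synthase (31) are the longest bars.

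Sequence at the start of transcription is shown for the ribosomal and secretory members, because these groups are known for different kinds of start. Ribosomal protein genes commonly begin at a C within a run of C and T, whereas strongly regulated secretory genes often have a TATA box, the sequence TATAAA at a fixed distance before the start. Sequences were taken from RefSeq (build GRCm38.p6), which had a window of 250 bases before and 50 bases after the most upstream listed start for 244 of the 300 members and for 14452 of the 18193 genes. A C followed by at least 4 further C or T, beginning within 2 bases of the start on the transcribed strand, was found in 11 of 32 ribosomal members (34.4%), in 0 of 8 secretory members, in 33 of all 244 members with a window (13.5%) and in 9.71% of all genes. Similar shares were found in lysosomal members (2 of 6) and cytoskeletal members (3 of 10). The 4 highest ribosomal members with such a run are shown from position -10 to position 20, with the run in capitals from its counted C onward. In all 4, lower-case C or T directly before the capitals extends the stretch upstream.
Rplp2: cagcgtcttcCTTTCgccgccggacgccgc
Rpl35: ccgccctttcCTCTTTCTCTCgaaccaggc
Rpl7a: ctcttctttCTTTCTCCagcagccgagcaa
Rpl38: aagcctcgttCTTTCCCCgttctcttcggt
They lie at chr7:141447641-141447670 (plus strand), chr2:39005112-39005141 (minus strand), chr2:26910797-26910826 (plus strand) and chr11:114668570-114668599 (plus strand).

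TATAAA on the transcribed strand, with its first base between 40 and 20 bases before the start, was found in 2 of 8 secretory members, in 0 of 32 ribosomal members, in 2.05% of the 244 members and in 2.53% of all genes. A similar share was found in redox and metal-binding members (2 of 10), and 1 of 21 signalling members had it. The 2 secretory windows run from position -40 to position -11, with the box in capitals.
Tgm4: cccaggagcaTATAAAaaggggccacatcc
Mmp7: gggctgagaagccaTATAAAtttctccagc
They lie at chr9:123034701-123034730 and chr9:7692050-7692079, both on the plus strand. These matches describe letters in the window and no binding was measured.

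*Rplp2*, an acidic protein of the ribosomal stalk to which elongation factors bind, had the highest signal on all 4 arrays, at 14.63, 14.59, 14.60 and 14.65 on arrays 1 to 4. *Rpl35*, a protein of the large subunit, held position 2 on all 4, at 14.58, 14.47, 14.52 and 14.59. Every array of *Rpl35* lay above every array of the next gene, *Rpl10a* (14.43 to 14.47), and this was the only one of the 19 neighbouring pairs among the 20 highest genes with no overlap between arrays. Of the 20 highest genes, 16 were among the 20 highest on each array taken alone, and no member of the 20 fell below position 27. From *Rpl7a* (14.34) to *Rpl13a* (14.30), each gene overlapped the next between arrays. These 9 genes were ribosomal proteins, the elongation factor *Eef1a1*, and the respiratory subunits *Ndufa13*, *Cox5b* and *Cox7a2*.

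**Figure D3:**
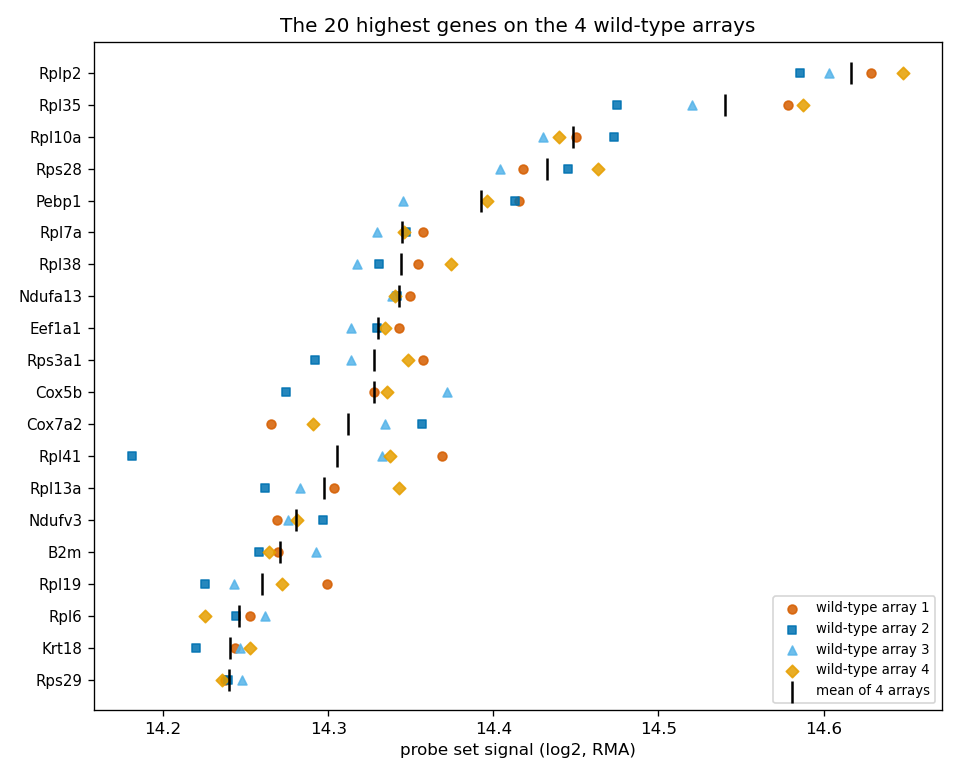
Log2 signal (horizontal axis) of the 20 highest genes on each of the 4 wild-type arrays, with the mean as a vertical bar. The ranges of neighbouring genes overlap for all pairs but Rpl35 and Rpl10a, and Rpl41 has the lowest single point, on array 2.

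Large-subunit proteins supplied 18 members of 26 measured and small-subunit proteins 18 of 24, with *Fau*, whose product is processed to a small-subunit protein, as a further member. The median SD of the ribosomal members over the 4 arrays was 0.032, and the most variable was *Rpl41*, the shortest ribosomal protein, at 14.37, 14.18, 14.33 and 14.34. Array 2 was the low one there, and the other 3 lay close together. The ribosomal list also had 14 genes outside the 300, of which 10 were below 10 on the log2 scale. Some are paralogues known for other tissues, such as *Rpl3l* (4.15) and *Rpl39l* (3.92), and *Rps6kl1* (5.37), a kinase-like gene, had entered through its symbol. Others are proteins of every ribosome: *Rps16* was at 3.08, *Rpl39* at 5.79, *Rpl37* at 6.05 and *Rpl12* at 6.68, each measured by its only probe set with 1 symbol. Whether these probe sets detect the transcripts was not tested, and a low position is therefore no sign of a low transcript level.

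Translation factors supplied 15 members. *Eef1a1*, which brings aminoacyl-tRNA to the ribosome, was at 14.33 (SD 0.012, n = 4), and its partners *Eef1d* and *Eef1b2* were at 14.01 and 13.85. *Naca*, which shields nascent chains from the wrong export route, was at 14.07. Initiation factor 3 had 6 members of 11 measured subunits (*Eif3i*, *Eif3f*, *Eif3k*, *Eif3h*, *Eif3e* and *Eif3c*), from 13.92 for *Eif3i* to 13.37 for *Eif3c*. *Eef2*, the translocation factor, was at 13.37 by its bright probe set and at 3.75 by its other. Besides these, 5 of 18 cytosolic tRNA synthetases were members (*Hars*, *Wars*, *Qars*, *Sars* and *Gars*), together with enzymes of amino acid synthesis: *Phgdh* for serine (13.81), *Glul* for glutamine (13.66) and *Asns* for asparagine (13.47). That group was formed after the values had been seen.

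Respiratory members came from complexes I, III and IV and from ATP synthase. Complex I, which takes electrons from NADH, had 11 members of 34 measured, whereas none of the 4 measured subunits of complex II, succinate dehydrogenase, was a member. Complex III had 3 of 9 and complex IV, the cytochrome oxidase, 6 of 17. ATP synthase had the largest share, with 11 of 17 (64.7%), from *Atp5g3* of the membrane ring (14.04) to *Atp5b*, a catalytic subunit (13.38). *Ndufa13* of complex I was at 14.35, 14.34, 14.34 and 14.34, and its SD of 0.0049 was the smallest among the 300. The group as a whole had a median SD of 0.027, and *Uqcrb* of complex III was its most variable member, at 13.51, 13.72, 13.55 and 13.59, with array 2 high. *Vdac1*, the pore of the outer mitochondrial membrane (13.96), *Slc25a5*, an exchanger of ADP and ATP (13.72), and the citrate cycle enzymes *Mdh2* (13.64) and *Cs* (13.58) were members too.

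Secretory products of the lobes began at position 27. *Spink1*, an inhibitor of trypsin-like proteases in seminal fluid, was at 14.19, 14.21, 14.18 and 14.17. *Tgm4*, the prostate transglutaminase that cross-links clotting proteins of the semen, was at 14.14, 14.17, 14.20 and 14.19. *Msmb*, the prostate secretory protein beta-microseminoprotein, was at 14.20, 14.14, 14.22 and 14.09. The ranges of the 3 genes overlapped, and their order lies within the spread between arrays. *Pbsn*, the androgen-dependent protein probasin, was at 13.64, 13.75, 13.74 and 13.81, with array 1 the lowest and array 4 the highest. *Mmp7*, a metalloproteinase of glandular ducts, was likewise lower on array 1 (13.77) than on arrays 2, 3 and 4 (13.85, 13.95 and 13.97).

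The other members of the list were *9530002B09Rik* (13.91), the protease inhibitor *Cst3* (13.79), the zinc-binding glycoprotein *Azgp1* (13.71), *9530003J23Rik* (13.64), the Golgi mannosidase *Man1a* (13.43), which trims sugar chains and is no secreted product, and the secreted chaperone *Clu* (13.34). *Clu* was the least even of them, at 13.61, 13.21, 13.20 and 13.33, with array 1 above the others, and it fell to position 349 without that array. A further 31 genes on the list were measured outside the 300. *Fgl1* (13.26), *Wfdc3* (13.21) and *Gdpd1* (13.13) lay closest, whereas 9 were below 6, among them the kallikreins *Klk1b16* (3.36) and *Klk1b1* (4.04). No gene of the 20 measured kallikreins, a family of secreted proteases, was a member, and the highest was *Klk1* at 8.90. With 1.65% of all genes as members, a family of this size would hold few members or none. Some listed genes were high on array 1 alone: *Spinkl* was at 12.84, 4.79, 5.88 and 4.91, *Wfdc15b* at 12.51, 6.37, 6.56 and 6.40, and *Ceacam10* at 13.49, 10.20, 10.92 and 10.54. *Olfm4* itself, a secreted glycoprotein and the gene the study removed from the other mice, was at 10.32, 10.23, 10.74 and 10.65, position 4722.

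**Figure D4:**
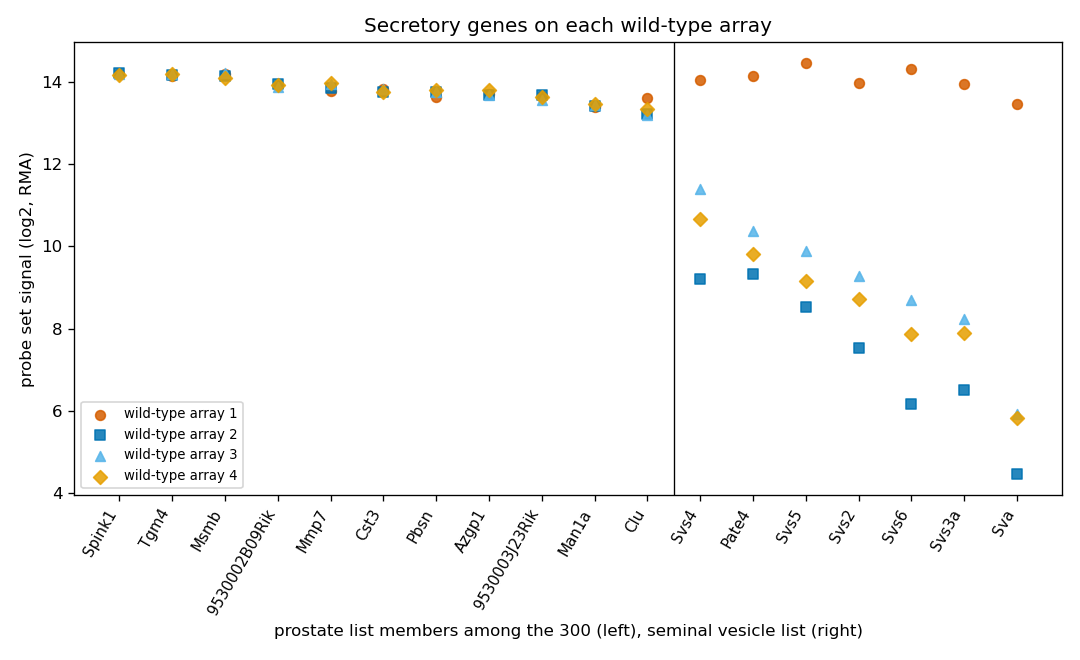
Log2 signal (vertical axis) of the 11 members among the lobe products (left of the line) and of the 7 seminal vesicle genes (right) on each wild-type array. The 4 arrays nearly coincide on the left, whereas on the right array 1 lies between 13.47 and 14.46 and the other 3 arrays between 4.46 and 11.39.

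The seminal vesicle genes were outside the 300 on the mean of the arrays but within the 300 highest on array 1 taken alone, all 7 of 7. *Svs5*, a secreted protein of the vesicle, was at 14.46, 8.53, 9.88 and 9.17 and thus held position 3 on array 1. *Svs6* was at 14.32, 6.17, 8.71 and 7.86, and *Svs4* at 14.04, 9.20, 11.39 and 10.66. Array 1 was the highest for each of the 7, array 2 was the lowest for each, and no gene of the list was within the 300 on arrays 2, 3 or 4. Of the 42 genes on the lobe-product list, 13, 10, 10 and 11 were within the 300 highest on arrays 1 to 4. The 13 include *Ceacam10*, which like the seminal vesicle genes was high on array 1 alone (13.49, against 10.20, 10.92 and 10.54). Whether attached seminal vesicle tissue accounts for array 1 was not tested. The mean shift of the 300 members on array 1 against their own means over the 4 arrays was 0.0012 on the log2 scale, against 4.27 for the seminal vesicle markers. The members were chosen by a high mean over these same arrays, and shifts of opposite sign cancel. These values are therefore a description and do not show that single members were unchanged on array 1.

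Genes of protein folding and export began just above the lobe products. *Agr2*, an ER protein disulfide isomerase of mucus-secreting and glandular epithelia, was at 14.19, 14.18, 14.24 and 14.20, position 25. *Tmbim6*, an ER membrane protein that limits cell death (14.21), and *Krtcap2*, a subunit of the oligosaccharyltransferase that adds sugar chains (14.21), stood directly above it. The translocation channel was represented by *Sec61b* (13.87) and *Sec61a1* (13.78) and by *Ssr4* (13.77), and sugar transfer also by *Rpn2* (13.49) and *Rpn1* (13.48). The folding enzymes and chaperones included *Ppib* (13.78), *P4hb* (13.77), *Calr* (13.75) and *Hspa5* (13.53). *Preb*, which starts vesicle formation at the ER, was among the most even, at 13.90, 13.91, 13.89 and 13.91. Of the measured genes on the lists, 8 of 51 for folding and 10 of 85 for translocation and export were members, and no member of either group had an SD above 0.066.

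*Krt18* was the highest gene of epithelium, at 14.24, 14.22, 14.25 and 14.25. Its partner *Krt8* was lower in signal (13.52), and *Krt19*, a keratin of ductal epithelia, lay between them at 13.83, 13.84, 13.94 and 13.81. Only these 3 of 48 measured keratins were members. The basal keratins *Krt5* (11.82) and *Krt14* (11.03) lay outside. *Cd24a*, a surface glycoprotein (14.09), *Tspan1*, a tetraspanin (14.12), *Ctnnb1*, the junction protein beta-catenin (13.47), and *Epcam*, an adhesion protein (13.37), were members on the list, and *Ceacam1*, *Prom1* and *Alcam* were placed with them later. The list of transcription factors and immediate early genes gave 3 members (5.17%, against 1.65% of all genes). *Hoxb13*, also one of the luminal markers, was at 13.45, 13.44, 13.48 and 13.37. *Jund* (13.44) and *Ets2* (13.37) were the other members from the list of 58. By their next probe sets *Jund* was at 6.49 and *Ets2* at 9.54.

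Stroma was seen most through smooth muscle. *Tpm2*, a tropomyosin, was at 14.19, 14.19, 14.08 and 14.19, with array 3 low. *Tagln* (13.81), the smooth muscle actin *Acta2* (13.80), *Myl9* (13.74), the kinase *Mylk* (13.53) and *Tpm1* (13.41) completed the 6 members of 19 measured. Array 3 was the lowest for *Tpm2*, *Tagln*, *Acta2*, *Myl9* and *Mylk*, and smooth muscle markers averaged 12.52 on it against 12.61 to 12.72 elsewhere. Of 85 collagens and other matrix genes, *Gsn* (13.39) and *Mgp* (13.38), an inhibitor of calcification, were members (2.35%). The immune list of 88 gave *B2m*, the light chain of class I antigen-presenting molecules (14.27), and *Ly6e* (13.60), or 2.27%. Both shares were near the 1.65% of all genes. Markers of macrophages averaged 9.71 to 10.20 and of T cells 6.36 to 6.97.

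Several members bind metals or control oxidation. *Sod1*, the copper and zinc superoxide dismutase, was at 14.13, and the metallothioneins *Mt1* and *Mt2*, which hold zinc, were at 14.03 and 13.77. *Fth1*, the ferritin heavy chain, was at 13.96 and *Txn1*, thioredoxin, at 13.70. *Gpx3*, a secreted glutathione peroxidase, was far less even than these, at 13.69, 13.58, 13.63 and 13.39, with array 4 low. Polyamine synthesis, for which the prostate is known, gave as members its regulators *Oaz1* (13.53) and *Oaz2* (13.40), which bring ornithine decarboxylase to degradation. The list of glycolysis and cytosolic energy metabolism gave 5 members of 24, among them *Nme2*, *Mdh1*, *Aldoa* (13.71) and *Ldha* (13.67). *Pebp1*, a phosphatidylethanolamine-binding protein that restrains RAF signaling, held position 5, at 14.42, 14.41, 14.35 and 14.40. Other secreted proteins, grouped after their values were seen, were *Fcgbp* (14.07), a mucus protein, the antimicrobial peptide *Defb1* (14.01), *Rnase1* (13.89), the cobalamin carrier *Tcn2* (13.59) and *Pate14*.

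The 300 covered little range. Their means lay between 14.62 and 13.33, a span of 1.29 on the log2 scale, and their median was 13.64, whereas the median of all genes was 8.11. The median SD of a member over the 4 arrays was 0.039, against 0.067 for the next 2700 genes and 0.12 for all genes. Among members, 10 (3.33%) had an SD above 0.1 and 3 (1.00%) an SD above 0.2, against 60.5% and 23.3% of all genes. Quantile normalization in RMA gives all arrays the same distribution of probe intensities, and its part in these small SDs was not tested. Of the 299 neighbouring pairs in the order, 2 had no overlap between arrays, and 224 members (74.7%) lay on every array above every array of the last member, *Uqcrc2* of complex III. On single arrays, 264 members were within the 300 highest on all 4, 18 on 3, 17 on 2 and 1 on a single array. Just inside the limit were *Qdpr*, *Ubl5*, *Adh1*, *Spcs1* and *Uqcrc2* (13.33 each), and just outside were *Dmac1* and *Pim3* (13.33 each) and *Dad1*, *Smdt1* and *Arf1* (13.32 each).

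**Figure D5:**
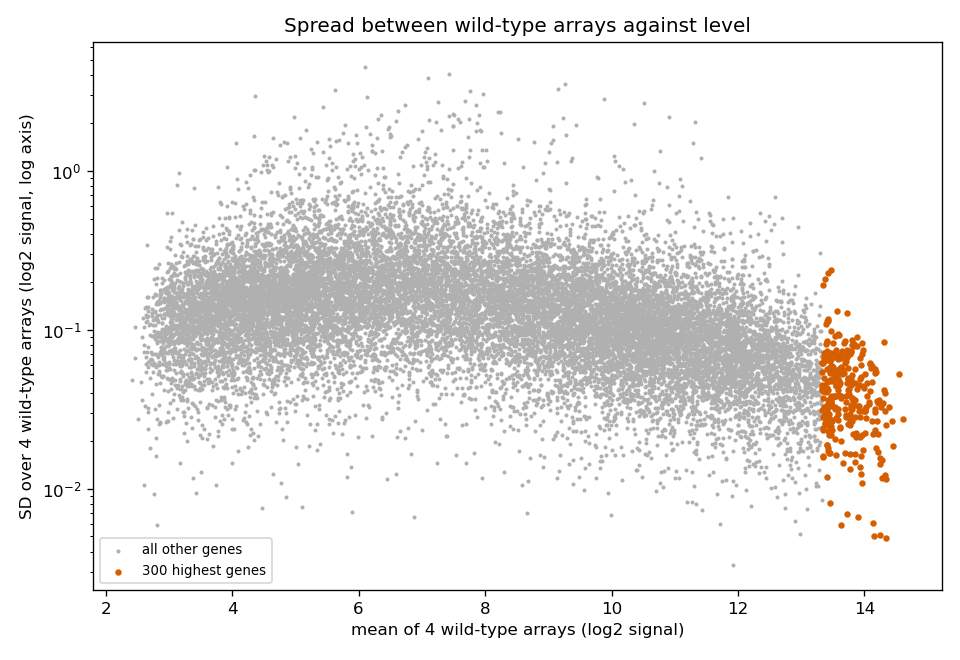
SD over the 4 wild-type arrays (vertical log axis) against mean log2 signal (horizontal axis) for all 18193 genes, with the 300 highest in orange. The orange points have a median SD of 0.039, and the grey points reach 4.49.

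Among the most variable members, *Pate14*, a small secreted protein of the PATE family, was at 13.82, 13.31, 13.38 and 13.37, with array 1 high. *Clstn1*, a cadherin-family membrane protein, was at 13.51, 13.20, 13.71 and 13.30, high on arrays 1 and 3. *Slc12a2*, the sodium, potassium and chloride cotransporter, was at 13.48, 13.40, 13.55 and 13.08, with array 4 low. It was also the member that fell furthest with the knockout arrays in place of the wild-type ones, to position 525. That position is by the mean of the knockout arrays, and no difference between genotypes was tested. *Cd52*, a surface peptide of lymphocytes that epididymal epithelium makes as well, was at 13.91, 13.61, 13.70 and 13.68, again highest on array 1. *Scd1*, a fatty acid desaturase, was at 13.56, 13.41, 13.44 and 13.28. Of the 12 members with the largest SD, 5 were highest on array 1, 3 on array 2, 2 on array 3 and 2 on array 4. Over all 300 members, array 4 was the highest for 107 and array 1 for 66, and array 3 was the lowest for 100. The least variable after *Ndufa13* were *Rpl4* (SD 0.0050), *Rps29* (0.0051), *Lamp1* (0.0059) and *Ndufb7* (0.0061).

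The sample titles carry a date, 1 for arrays 1 and 4 (here day 1) and another for arrays 2 and 3 (day 2), and the labels do not say which step it dates. The days were compared within the wild type. No probe set of 45037 passed an adjusted p of 0.05 (limma, 2-sided), so that 0% were called, and no member was. Before adjustment, p was under 0.05 for 1177 probe sets (2.61%) and for 0 of the 300 members. *Clu* had the smallest p of a member, with a difference (day 2 minus day 1) of -0.27 on the log2 scale (standard error 0.13, limma adjusted p = 1.00), which was also the largest difference. *Tpm1* differed by -0.19 (standard error 0.095) and *Rps15*, a small-subunit protein, by -0.14 (standard error 0.093), both with a limma adjusted p of 1.00. With 2 arrays a day such differences were within the spread between arrays. With the knockout arrays added and genotype as a second term, the difference of *Clu* was -0.03 and 0 probe sets were called. The unadjusted limma p was then under 0.05 for 4 of the members (1.33%) and for 2079 of all probe sets (4.62%).

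The members were also compared with other genes in gene span, which their choice did not use, and in kind of probe set. Their genes were short: the median span from start to end of the gene was 8360 bp, against 20222 bp for all genes with a span, and 54.3% of members against 30.2% of all genes were under 10000 bp. All 37 ribosomal members, 80.6% of the respiratory members and 45.5% of the lobe products were under that length. The kind of probe set differed too, but it is not independent of the choice, because each gene took its brightest probe set. Probe sets whose probes match several transcripts (suffixes _s_at and _x_at) measured 32 and 65 of the members, or 10.7% and 21.7%, against 5.65% and 3.87% of all genes. Probe sets with the suffix _a_at, which match transcripts of 1 gene, measured 110 (36.7%, against 11.7% of all genes), and those with _at alone 93 (31.0%, against 78.8%). Ribosomal and other housekeeping genes have many near-identical copies, so signals of such probe sets may include those copies. Probe sets that carry several gene symbols, which were not used, numbered 108 at or above the level of the last member, beside 397 with 1 symbol and 36 with none.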

How the data were processed

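RNA of whole prostate from 4 wild-type mice of 3 months was measured on genome-wide Affymetrix arrays, 1 mouse per array. The deposited values are log2 signals that the authors made with RMA, a method that corrects for background, quantile-normalizes across arrays and gives 1 value per probe set; the RMA version is not given in the sources. The labels give 4 mice per genotype and Trizol, the methods 5 mice and the RNeasy Plus Mini *Kit*. The number of arrays limits the precision. The p-values measure the spread between arrays, in which mouse, dissection, RNA and array cannot be told apart.

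Control probe sets (64) were left out of 45101 probe sets in all. Of the other 45037, 34945 had 1 gene symbol, 932 several and 9160 none, by GEO's platform annotation. Symbols were updated through the gene ID to RefSeq (GRCm38.p6) for 18032 of 18193 genes, and spans, start sequences and strands come from RefSeq. Each gene took its brightest probe set, by the mean of the 4 wild-type arrays. Genes were grouped by 27 functional lists and 18 marker lists. The members, lists and rules were chosen with earlier results of these data known, and 77 genes were grouped after their values were seen.

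The genes named are the 20 highest, the 4 highest members of each list, the 12 most and 5 least variable members, 5 genes on either side of the limit, the markers, *Olfm4* and the 3 members with the smallest p between days; others were named after their values were seen. Days were compared in R 4.3.3 with lmFit and eBayes of limma 3.58.1 (Benjamini-Hochberg over all probe sets), after a test on simulated data. Ranks were computed with pandas 2.3.3 and numpy 2.4.6 in Python 3.11.15. Alternatives were each array left out, the median, the mean of a gene's probe sets, no _s_at or _x_at probe sets, centring, quantile normalization, the knockout arrays, each day alone, filters, an intensity trend and list lengths of 100 and 1000.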

Additional observations from a re-analysis of the deposited data

Results flagged for a closer look

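Among 297 named genes, 23 had 1 array far from the other 3, by the gap to the nearest array relative to the whole range. They were 14 of the 229 genes named by rule and 9 of the 68 named after their values were seen. Chance alone puts about 1 in 20 groups of 4 past this limit. Among the members, array 3 was low for the smooth muscle genes *Tpm2* (14.08, nearest array 14.19) and *Myl9* (13.66, nearest 13.76), and array 1 was high for *Pate14* (13.82, nearest 13.38) and for *Dbi*, an acyl-CoA-binding protein (13.53, nearest 13.37). Array 4 was low for *Phgdh* of serine synthesis (13.68, nearest 13.85) and high for *Azgp1* (13.81, nearest 13.69), and array 3 was high for *Eif3h* (13.56, nearest 13.52).

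Among markers outside the 300, array 1 was high for the seminal vesicle gene *Sva* (13.47, nearest 5.93), for the adipose genes *Retn* (10.33, nearest 6.90) and *Lep* (6.74, nearest 4.40), for the urothelial gene *Upk2* (9.21, nearest 8.26), for the endothelial genes *Cldn5* (9.40, nearest 8.83) and *Pecam1* (5.95, nearest 5.60) and for the pancreatic gene *Cpa1* (6.04, nearest 5.46). Array 1 was low for *Mbp*, a myelin protein (11.09, nearest 11.26). Array 2 was high for *Cela2a* of pancreas (6.22, nearest 5.95), and array 3 was low for *Cd8a* of T cells (6.40, nearest 7.22).

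Of the genes outside the 300 that were named after their values were seen, array 1 was high for 6. These were the lobe-list genes *Spinkl* (12.84, nearest 5.88) and *Wfdc15b* (12.51, nearest 6.56), the nuclease *Dnase2b* (12.82, nearest 4.02), the transcription factor *Pou3f3* (10.51, nearest 4.79), *Smpx* (10.47, nearest 4.15) and *Sval2* (8.82, nearest 3.02). Some of these were named because of their large spread, so that this count is a description.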

How the results depend on the processing

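Of the 300 genes, 295 to 297 remained when each wild-type array was left out in turn, and 289 remained in all 4 of these rankings. The median over arrays lost 4, while centring kept 300, quantile normalization 298, array day 1 alone 295, array day 2 alone 291, and the knockout arrays 278. The choice of probe set mattered most. When a gene's probe sets were averaged, 161 of the 300 remained and 104 fell below position 1000, down to position 9907 for *Eif3h*; ribosomal proteins then numbered 26 and respiratory genes 34. Without _s_at and _x_at probe sets 226 remained, with 29 ribosomal and 31 respiratory genes. Members with more than 1 probe set (211) had a median gap of 0.77 between the brightest and the next, and 39 had a gap above 3, up to 11.07 for *Tpt1*. Of 324 recomputed list counts, 12 changed by more than 1.5 times. With probe sets averaged, translation factors on the list went from 14 to 7 and smooth muscle from 6 to 3. Under the same averaging, glycolysis with cytosolic energy metabolism went from 5 to 3 and ubiquitin and proteasome from 4 to 8. Histones and chromatin then went from 3 to 1 and polyamine metabolism from 2 to 1. Without _s_at and _x_at probe sets, glycolysis with cytosolic energy metabolism had 3 and ubiquitin and proteasome 7. RNA binding then had 1 in place of 2, and ion and solute transport 7 in place of 4. On array day 2 alone, RNA binding had 1 and the lysosome 3 in place of 5. Averaging also moved the level of 108 of the 229 genes named by rule by more than their spread between arrays. Ribosomal proteins made up 29% of the 100 highest, 12.3% of the 300 and 3.70% of the 1000 highest genes.

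The median SD of the 300 lay between 0.035 and 0.039 with each array left out. Between array days, 0 probe sets were called in every setting except without array 4, where array 1 alone stood for day 1 and was assumed to vary like the others. Leaving out each array gave 0 to 10 calls, and the 10 without array 4, all lower on day 2, included *Svs2* and *Wfdc15b* and no member. The number with an unadjusted p under 0.05 was 1177, from 347 with a filter at 7 to 3470 without array 4. No paired analysis was possible because each replicate number occurs once within the wild-type group. With 2 arrays a day, small differences between days were not detectable.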

Other observations

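Among the genes with the largest SD over the 4 wild-type arrays, all outside the members, several were high on array 1 alone. *Dnase2b*, a nuclease, was at 12.82, 4.02, 3.73 and 3.82 on arrays 1 to 4, and *Smpx*, a small muscle protein, at 10.47, 3.88, 4.15 and 4.01. *Sval2*, a paralogue of the seminal vesicle gene *Sva*, was at 8.82, 2.88, 2.73 and 3.02, and *Pou3f3*, a transcription factor, at 10.51, 4.62, 4.57 and 4.79. Others were high on arrays 1 and 3. *Vip*, a neuropeptide of pelvic nerves, was at 10.48, 4.62, 10.56 and 5.38, and *Snap25*, a protein of synaptic vesicle release, at 10.21, 4.71, 9.83 and 5.97. The nerve markers *Uchl1* (11.08, 7.99, 10.33 and 7.70) and *Prph* (10.77, 7.88, 10.04 and 7.62) followed the same arrays. *Mbp*, alone among the 6 measured nerve markers, did not, at 11.09, 11.29, 11.28 and 11.26.

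Plasma and B cell markers differed along another line, with means of 7.41, 7.30, 6.41 and 5.99. *Jchain*, which joins secreted antibodies, was at 11.06, 10.85, 10.20 and 9.89, and *Ms4a1*, the B cell surface protein CD20, was at 6.63, 6.50, 4.42 and 4.16. For both genes arrays 1 and 2 lay above arrays 3 and 4. Urothelial markers averaged 8.87, 8.31, 8.14 and 7.74. What these arrays shared in dissection was not tested.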
